A study of Homo sapiens with 3 samples.

Results

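The regions described here are the YBX1 peaks that the authors placed at promoters and whose finer label was not a simple tandem repeat. They were chosen from the peak lists of 2 ChIP-seq replicates by position and label alone, with no use of peak height. Peaks on chromosomes X and Y, on alternative contigs and in a stretch of chromosome 1 that holds mitochondrial sequence were left out. This gave 450 of 22874 peaks in replicate 1 and 311 of 17285 peaks in replicate 2. The lists held 750 and 592 promoter peaks in all, of which 251 and 234 lay on simple repeats at kept positions. Position alone left out 29 and 27 further promoter peaks outside simple repeats, and 20 and 20 on them. Both YBX1 immunoprecipitations came from HEL, an established human erythroleukaemia line with mutated JAK2, grown without any drug, and were made with the antibody clone EP2708Y against YBX1. The series also held 1 input library, sheared HEL chromatin that went through no immunoprecipitation and served as the background for both peak lists. Nothing in the labels says that the replicates were separate cultures, so the differences between them may be technical. The alignment named in the header of the replicate 2 list carries another number than its label, and the label was followed.

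YBX1, also called YB-1, belongs to the cold-shock domain proteins, which bind single-stranded nucleic acids and RNA. It was first known as a protein that binds the Y-box, an inverted CCAAT element (CTGATTGG) in the promoters of major histocompatibility genes, and it also acts on mRNA splicing, stability and translation. The study placed YBX1 in the splicing and MKNK1-ERK signalling of JAK2-mutated cells, and a ChIP-seq of this kind asks which DNA is recovered with the protein. A promoter here is whatever the authors' annotation calls so; its window is not stated in the sources used here.

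Promoters of genes at the 15 strongest regions found in both replicates, and of RHOU with its regions labelled CpG island, are shown first, because the CCAAT element is the classical YBX1 site in promoters. They are the 250 bases before the gene start, 5′ to 3′ on the gene's strand, from RefSeq on GRCh38.p14. No window is shown for SLC22A11, OR1I1, NECAB2, CRIPAK, OSCAR and DUSP5P1. Capitals mark CCAAT or its reverse complement ATTGG. The peaks are on hg19 and no conversion was made, so it was not determined whether a peak lies within the window shown. The finer labels of the TAS2R1 and LCE3A regions name a transcript end, not a start. The windows are those of TTYH1 (chr19:54415214-54415463, plus strand), HPN-AS1 (chr19:35106305-35106554, minus strand), YIF1B (chr19:38315948-38316197, minus strand), TAS2R1 (chr5:9630352-9630601, minus strand), TNFRSF8 (chr1:12063053-12063302, plus strand), NDUFA3 (chr19:54102605-54102854, plus strand), NHSL1 (chr6:138572570-138572819, minus strand), OR5M11 (chr11:56543258-56543507, minus strand), LCE3A (chr1:152623104-152623353, minus strand) and RHOU (chr1:228644397-228644646, plus strand). HPN-AS1, YIF1B, NHSL1 and RHOU have 2 starts each in the table, and the first listed was taken.
TTYH1: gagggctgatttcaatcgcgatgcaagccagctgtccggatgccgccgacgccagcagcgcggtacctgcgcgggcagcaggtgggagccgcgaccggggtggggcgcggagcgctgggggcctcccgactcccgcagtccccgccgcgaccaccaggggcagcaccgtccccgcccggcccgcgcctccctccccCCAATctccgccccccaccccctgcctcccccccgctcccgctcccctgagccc
HPN-AS1: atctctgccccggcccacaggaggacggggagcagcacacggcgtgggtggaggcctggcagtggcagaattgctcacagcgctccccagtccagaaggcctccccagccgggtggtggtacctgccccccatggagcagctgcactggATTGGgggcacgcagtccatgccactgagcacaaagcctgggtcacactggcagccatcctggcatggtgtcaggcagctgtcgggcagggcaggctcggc
YIF1B: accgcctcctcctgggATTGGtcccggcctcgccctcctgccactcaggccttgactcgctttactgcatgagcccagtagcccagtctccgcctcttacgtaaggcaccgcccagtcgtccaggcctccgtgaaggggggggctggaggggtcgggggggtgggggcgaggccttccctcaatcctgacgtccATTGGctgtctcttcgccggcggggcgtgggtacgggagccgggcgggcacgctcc
TAS2R1: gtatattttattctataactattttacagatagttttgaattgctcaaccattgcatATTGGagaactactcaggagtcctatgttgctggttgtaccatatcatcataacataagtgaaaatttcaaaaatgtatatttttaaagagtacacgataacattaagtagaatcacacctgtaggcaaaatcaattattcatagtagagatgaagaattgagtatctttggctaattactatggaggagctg
TNFRSF8: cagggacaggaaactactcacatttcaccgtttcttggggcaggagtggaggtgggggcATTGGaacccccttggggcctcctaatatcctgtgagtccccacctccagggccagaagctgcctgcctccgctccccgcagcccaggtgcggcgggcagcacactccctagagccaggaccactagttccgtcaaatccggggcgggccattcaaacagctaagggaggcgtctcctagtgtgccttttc
NDUFA3: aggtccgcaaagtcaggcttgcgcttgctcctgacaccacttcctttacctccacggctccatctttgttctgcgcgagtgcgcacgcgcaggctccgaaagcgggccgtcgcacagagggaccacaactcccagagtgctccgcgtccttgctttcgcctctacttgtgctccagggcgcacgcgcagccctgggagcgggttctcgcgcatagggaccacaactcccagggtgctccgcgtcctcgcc
NHSL1: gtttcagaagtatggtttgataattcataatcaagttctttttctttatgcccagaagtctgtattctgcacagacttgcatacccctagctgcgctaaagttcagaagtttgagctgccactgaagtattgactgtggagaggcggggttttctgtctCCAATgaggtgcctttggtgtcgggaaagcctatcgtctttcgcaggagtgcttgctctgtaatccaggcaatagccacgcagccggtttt
OR5M11: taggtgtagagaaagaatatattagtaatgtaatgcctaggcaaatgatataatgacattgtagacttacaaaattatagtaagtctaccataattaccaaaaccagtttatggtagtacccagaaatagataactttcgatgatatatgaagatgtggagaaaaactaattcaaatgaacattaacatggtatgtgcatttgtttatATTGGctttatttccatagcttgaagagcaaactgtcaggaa
LCE3A: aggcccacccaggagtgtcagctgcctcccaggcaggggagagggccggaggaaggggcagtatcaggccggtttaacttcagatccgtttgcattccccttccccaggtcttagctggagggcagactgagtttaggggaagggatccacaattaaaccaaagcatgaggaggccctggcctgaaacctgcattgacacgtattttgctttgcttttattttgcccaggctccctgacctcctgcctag
RHOU: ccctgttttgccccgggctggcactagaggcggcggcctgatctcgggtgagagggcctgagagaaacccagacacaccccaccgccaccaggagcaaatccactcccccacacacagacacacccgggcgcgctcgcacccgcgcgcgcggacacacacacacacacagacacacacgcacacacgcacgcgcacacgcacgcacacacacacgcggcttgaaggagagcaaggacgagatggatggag

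These promoters have little in common as sequences. The TTYH1 window is 77.6% G and C with 29 CpG dinucleotides, whereas the windows of OR5M11 and TAS2R1 are 30.4% and 30.8% G and C with 1 CpG each. A CCAAT core in either orientation is present in 7 of the 10 windows, against 31.8% of the 33725 such windows of 250 bases in the RefSeq table, and YIF1B has 2 of them, at 234 and 56 bases before the start. NDUFA3, LCE3A and RHOU have none in these 250 bases. The 10 genes were picked for their peaks and are few. Over the windows at hand for 262 of the named genes, which reach 50 bases past the start, the share was 33.5%, against 34.4% of all. A match is a string of letters and not a binding site.

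One further promoter was chosen after its sequence was seen. ZNF773 encodes a zinc finger protein, and the authors labelled 2 regions there promoter-TSS, the label for the surroundings of a transcription start. Region chr19:58010819-58011100 (hg19) had 35 tags in replicate 1 and 23 tags in replicate 2, with fold enrichments of 68.8 and 75.3. Region chr19:58010646-58010766 had 17 and 11 tags, with fold enrichments of 50.6 and 26.1. Their nearest peak labelled as a simple repeat was 458535 bp or more away. Yet the 250 bases before the ZNF773 start (chr19:57499688-57499937, plus strand, GRCh38.p14) open with 24 bases of a tandem TCCATC repeat, capitalised below together with 2 CCAAT elements at 215 and 116 bases before the start.
ZNF773: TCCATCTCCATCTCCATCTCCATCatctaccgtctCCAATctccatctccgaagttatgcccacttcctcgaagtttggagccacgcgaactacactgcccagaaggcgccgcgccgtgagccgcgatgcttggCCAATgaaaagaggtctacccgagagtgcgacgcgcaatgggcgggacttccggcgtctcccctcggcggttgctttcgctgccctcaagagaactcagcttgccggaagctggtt

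The first question was how far the replicates named the same promoter regions. A peak was counted as found again when at least 1 bp of it lay in a peak of the other list. In replicate 1, 168 of the 450 promoter peaks outside simple repeats were found again (37.3%, 95% Wilson interval 33% to 41.9%), where all peaks kept of that list gave 53.8% and those outside simple repeats 36%. In replicate 2, 172 of 311 were found again (55.3%, 49.7% to 60.7%), where all peaks kept gave 77.5% and those outside simple repeats 58.8%. Promoter peaks on simple repeats were found again more often, at 72.5% (66.7% to 77.7%) of 251 and 89.7% (85.2% to 93%) of 234. The promoter peaks outside repeats thus differed from them by −35.2 percentage points (95% Newcombe interval −41.9 to −27.8) in replicate 1 and by −34.4 points (−40.9 to −27.4) in replicate 2. All intervals given here cover counting error only, and neighbouring peaks are not independent.

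Against the other peaks outside simple repeats the difference was small. In replicate 1 those peaks were found again at 35.9% of 10392, a difference of 1.41 points (−3.03 to 6.06). In replicate 2 they were found again at 59% of 6557, a difference of −3.68 points (−9.37 to 1.87). Both intervals include 0 and leave room for a few points either way. By position, intergenic peaks stood at 37.5% and 59.2%, intron peaks at 33.8% and 59.5%, and exon peaks at 30% and 43.3%. The difference from exon peaks was 7.33 points (−0.634 to 14.8) in replicate 1 and 12 points (2.1 to 21.6) in replicate 2, so it is apart from 0 in replicate 2 and not in replicate 1. It was not matched for the number of tags, which is described below. Peaks of exactly 5 tags made up 41.1% of exon peaks in replicate 2, against 33.1% of the promoter peaks. In replicate 1 these shares were 32.5% and 32%.

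**Figure D1:**
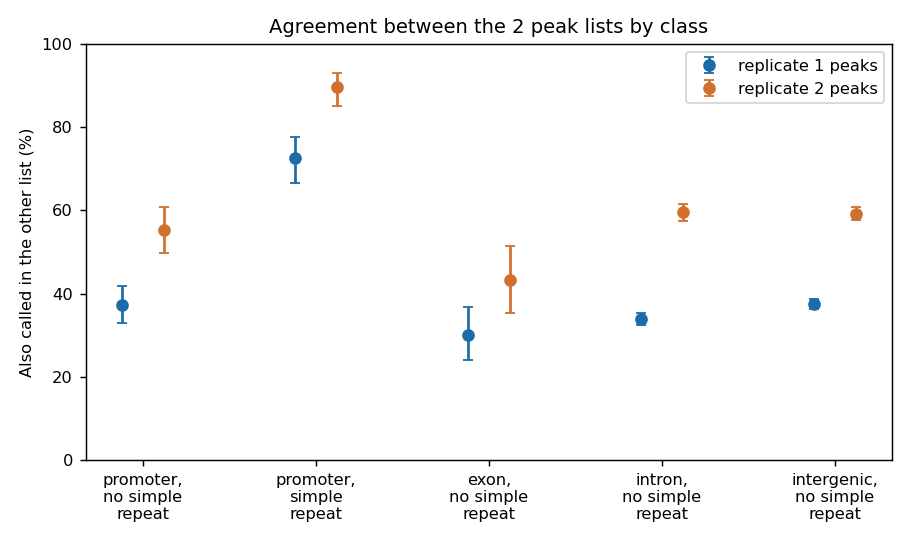
Share of peaks found again in the other list (%, vertical axis) by class of peak, promoter peaks outside simple repeats first. Points are shares and bars 95% Wilson intervals, blue for replicate 1 and orange for replicate 2; promoter peaks on simple repeats stand highest at 72.5% and 89.7%, and the promoter peaks outside repeats, at 37.3% and 55.3%, lie near the intron and intergenic peaks.

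Most promoter peaks rested on few tags, the aligned reads counted by the authors in each peak. The median was 6 tags in both replicates, the quartiles were 5 and 10 tags in replicate 1 and 5 and 11 in replicate 2, and the highest values were 379 and 298. The lists hold no peak under 5 tags, and peaks at exactly 5 made up 144 (32%) and 103 (33.1%) of the promoter peaks. Promoter peaks on simple repeats had medians of 14 and 12 tags, and the other peaks outside repeats 7 and 6 tags. Fold enrichment, the authors' ratio of the tags at a summit to their local background, had a median of 40.5 in replicate 1 and 38.3 in replicate 2. It ranged over 4.02 to 181 and over 4.4 to 141, and its median was 76.9 and 67.4 for promoter peaks on simple repeats. For 88 of the 450 and 39 of the 311 promoter peaks (19.6% and 12.5%) the fold was taken over the genome-wide level, the local input being no higher. That was so for 27.8% and 25.3% of the other peaks outside repeats.

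Agreement followed the number of tags. In replicate 1, promoter peaks of 5 tags were found again in 16% of cases, those of 6 to 7 tags in 31.7%, those of 8 to 10 tags in 32.5% and those of 11 or more tags in 77.7%. In replicate 2 the same ranges gave 35.9%, 47.6%, 65.9% and 82.5%. The other peaks outside simple repeats gave 14.9%, 24.9%, 40.7% and 75% in replicate 1 and 37.8%, 56.2%, 72.1% and 85.5% in replicate 2. In all 8 ranges the interval of the difference includes 0. The promoter peaks found again had a median of 10 tags in replicate 1 and 8 in replicate 2, against 6 and 6 for those found once. No promoter peak found once had more than 23 tags in replicate 1 or more than 30 in replicate 2.

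**Figure D2:**
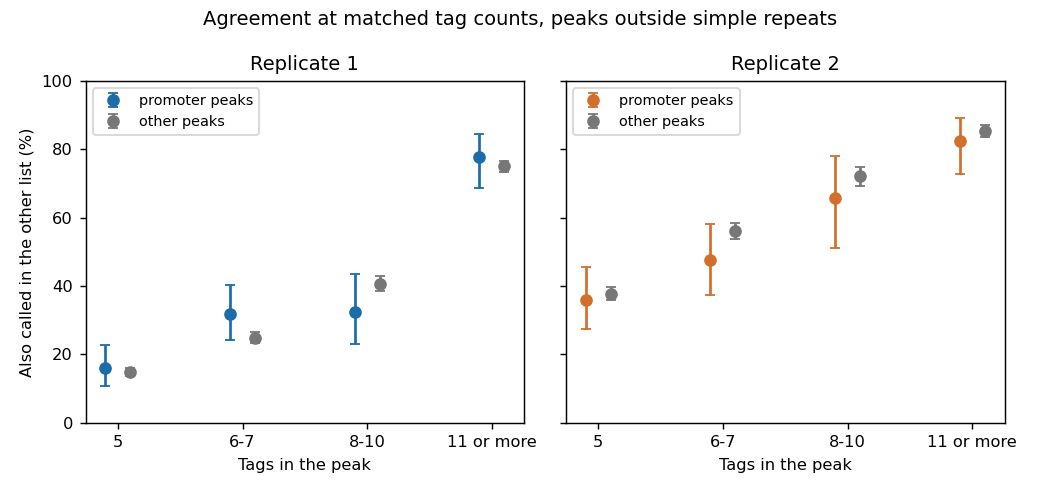
Share of peaks found again in the other list (%, vertical axis) against the tags in the peak (horizontal axis), for promoter peaks (coloured) and other peaks outside simple repeats (grey), with 95% Wilson intervals. In both panels the share is highest at 11 or more tags, 77.7% and 82.5% for promoter peaks, and the coloured and grey points lie close to each other.

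Although all these peaks carry the promoter annotation, the finer label of most names something other than a transcription start. The label promoter-TSS stood on 113 of 450 (25.1%) replicate 1 peaks and 79 of 311 (25.4%) replicate 2 peaks. Of these 49 (43.4%) and 55 (69.6%) were found again. Introns followed with 93 and 50 peaks, plain intergenic sequence with 67 and 42, LINE elements with 52 and 32, and SINE elements with 33 and 26, of which 23 and 17 were Alu elements. The transcript end (TTS) was named for 18 and 22 peaks, LTR elements for 18 and 11, and exons for 16 and 12, of which 2 and 3 were found again. The LINE type HAL1-2a_MD accounted for 24 and 15 of the promoter peaks. Of those, 14 of 24 (58.3%, 38.8% to 75.5%) and 15 of 15 (100%, 79.6% to 100%) were found again. Each peak carries a single label, so a label for a gene feature, as on 166 and 126 peaks, can stand where a repeat or CpG island also lies.

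**Figure D3:**
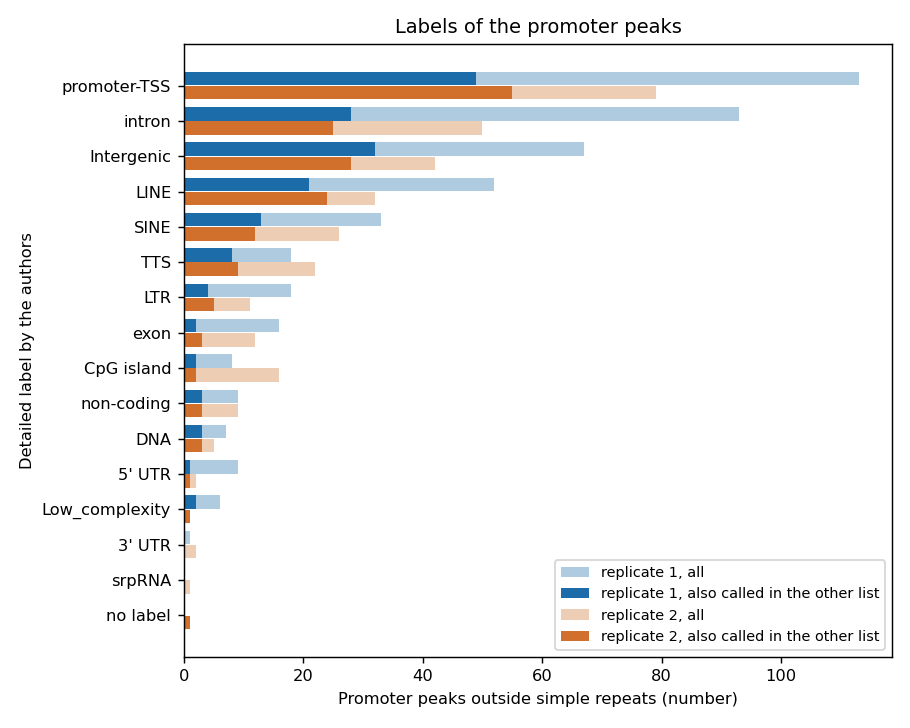
Number of promoter peaks outside simple repeats (horizontal axis) under each finer label of the authors (vertical axis), blue for replicate 1 and orange for replicate 2, with the dark part of each bar for peaks also called in the other list. The label promoter-TSS is the most frequent, with 113 and 79 peaks, and CpG island is among the rare ones with 8 and 16.

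CpG islands, the CpG-dense stretches found at many housekeeping promoters, were rarely named. The label stood on 8 of 450 promoter peaks in replicate 1 (1.78%, 0.904% to 3.47%) and on 16 of 311 in replicate 2 (5.14%, 3.19% to 8.19%). Among the other peaks outside simple repeats it stood on 0.876% and 2.5%, so the promoter peaks were 0.902 points higher (0.00567 to 2.6) in replicate 1 and 2.64 points higher (0.648 to 5.71) in replicate 2. Against intergenic peaks alone the differences were 0.729 points (−0.191 to 2.43) and 1.49 points (−0.558 to 4.59), and both intervals include 0. Against intron peaks they were 1.13 points (0.202 to 2.83) and 4.48 points (2.48 to 7.53). Against exon peaks they were 1.78 points (−0.3 to 3.47) and 4.44 points (0.688 to 7.54). Of the labelled promoter peaks, 4 in replicate 1 and 11 in replicate 2 were named for DUSP5P1 and RHOU on chromosome 1, where the tandem cluster of 5S ribosomal RNA genes lies. With peaks named for RHOU, REXO1L2P, MIR3648-1, ROCK1P1 or GOLGA8 genes left out, a choice of multicopy arrays made after seeing the data, the shares were 0.939% and 1.82%. With the multicopy families USP17L, SNAR and DBET left out as well, they were 0.709% and 1.55%. The other peaks outside simple repeats were not recounted in this way, so these shares cannot be set against their 0.876% and 2.5%. The USP17L genes, a tandem family of deubiquitinases on chromosome 4, had 12 peaks in replicate 2, none found again, and 0 in replicate 1. The only 2 regions labelled CpG island in both lists lie at DUSP5P1 and RHOU on chromosome 1. Region chr1:228778540-228778650 had 12 and 7 tags with fold enrichments of 21.4 and 14.4, and region chr1:228779002-228779115 had 9 and 11 tags with 13.7 and 20.7.

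The CpG island peaks not named for DUSP5P1 and RHOU were each called in a single replicate. Replicate 1 had those of ICAM5, an adhesion molecule of neurons, with 11 tags and a fold of 40.6, GPR35, a G protein-coupled receptor, with 5 tags and 22, LINC01410, a long non-coding RNA, with 9 tags and 15.1, and DBET, a transcript of the D4Z4 repeat, with 5 tags and 60.2. Replicate 2 had those of DNER, a transmembrane protein of the Notch field, with 7 tags and 56.5, EEF1A1, the translation elongation factor, with 5 tags and 46.8, DBET with 5 tags and 38.3, UBA2, a subunit of the SUMO-activating enzyme, with 5 tags and 33.2, and PTPRD-AS1, an antisense RNA, with 5 tags and 16.8. The DBET peaks of the replicates did not overlap each other. EEF1A1 also had a peak labelled promoter-TSS that was found in both lists, with 50 tags in replicate 1 and 6 in replicate 2. Over all CpG island peaks the median fold was 19.1 in replicate 1 and 16.5 in replicate 2, against 40.5 and 38.7 for the promoter peaks with any other label. They were found again less often in replicate 2, by −45.1 points (−55.7 to −20.9), whereas in replicate 1 the difference of −12.6 points (−31 to 21.8) includes 0. Of these CpG island peaks, 4 of 8 in replicate 1 and 11 of 16 in replicate 2 were named for DUSP5P1 and RHOU. The intervals count these neighbouring pieces of 1 locus as separate peaks, so they are too narrow.

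Leaving out peaks labelled as simple repeats did not remove the neighbourhood of such repeats. A peak labelled as a simple repeat lay within 500 bp in the same list for 142 promoter peaks of replicate 1 (31.6%, 27.4% to 36%) and 83 of replicate 2 (26.7%, 22.1% to 31.9%). Among the other peaks outside repeats it did so for 50% (49.1% to 51%) and 46% (44.8% to 47.2%). Counting simple-repeat peaks of either list, 161 and 97 promoter peaks had one that near, and 47.2% and 77.3% of these were found again. The 289 and 214 promoter peaks farther away were found again in 31.8% (26.7% to 37.4%) and 45.3% (38.8% to 52%) of cases. The other peaks outside repeats gave 42.1% and 71.5% near and 27.2% (25.9% to 28.5%) and 42.6% (40.8% to 44.4%) far. In 16 and 13 cases the overlapping peak in the other list was itself a promoter peak labelled as a simple repeat.

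The promoter peaks were unevenly spread over chromosomes. Chromosome 19, which is rich in genes, held 57 (12.7%) of them in replicate 1 and 39 (12.5%) in replicate 2, against 3.32% and 3.64% of the other peaks outside simple repeats. Chromosome 1 held 70 and 47, and chromosome 11 held 41 and 32. The number of promoters on each chromosome was not taken into account.

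Merged over both lists, the promoter peaks formed 594 regions. Of these, 144 (24.2%) had promoter peaks of both replicates, 298 of replicate 1 only and 152 of replicate 2 only. Merged regions were not counted for the other peaks, so this share shows nothing particular to promoters. Counted by peaks, the shares found again were near those of the other peaks outside simple repeats, as given above. In the 144 regions the fold enrichment of the strongest peak had a median of 47.5 in replicate 1 and 41.6 in replicate 2. The log2 ratio of replicate 1 to replicate 2 had a median of 0.14 and an SD of 0.56, 79 regions were higher in replicate 1, and 134 lay within a factor of 2. Log2 fold enrichment correlated over the 144 regions with a Pearson r of 0.849 and a Spearman rho of 0.753. This describes regions of 2 libraries that were selected for being called in both and whose folds share the input library. Without 16 regions of the RHOU, REXO1L2P, MIR3648-1, ROCK1P1 and GOLGA8 arrays r was 0.754 (128 regions).

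**Figure D4:**
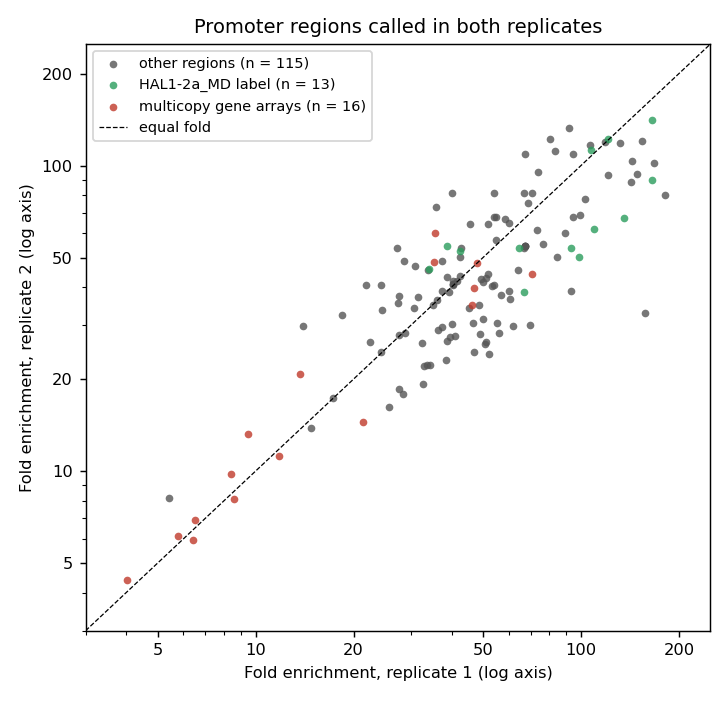
Fold enrichment in replicate 1 (horizontal, log axis) and replicate 2 (vertical, log axis) of the 144 promoter regions called in both, with regions labelled HAL1-2a_MD in green (13), regions of multicopy gene arrays in red (16), the other 115 in grey, and a dashed line at equal fold. The points run along the line, and most regions at the low end belong to the multicopy arrays.

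The strongest regions, ranked by the lower of their fold enrichments, lay at genes of varied function. TTYH1, a membrane protein of the tweety family of anion channels, came first with region chr19:54925238-54925392, labelled HAL1-2a_MD, which had 31 and 37 tags and folds of 166 and 141 in replicates 1 and 2. A second region beside it, chr19:54925404-54925553, had 29 and 20 tags and folds of 165 and 89.7. HPN-AS1, an antisense RNA at the serine protease gene HPN, followed with chr19:35596415-35596582, 32 and 15 tags and folds of 121 and 122. That region is also a HAL1-2a_MD element, 43 bp from a simple-repeat peak. SLC22A11, a transporter of organic anions in kidney and placenta, had a region of the same element, chr11:64320565-64320768, with 45 and 39 tags and folds of 107 and 112. Across the 13 regions with this element outside the arrays, the lower fold had a median of 53.8, against 38.7 over all 144 regions. Of the 13, 7 lay within 500 bp of a simple-repeat peak, as did 55 of the 144.

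Several of the strongest regions did carry the promoter-TSS label. YIF1B, a protein of transport between endoplasmic reticulum and Golgi, had region chr19:38800471-38801150 with 124 and 70 tags, as 1 peak in replicate 1 and 4 peaks in replicate 2, and folds of 155 and 120. TNFRSF8, the lymphocyte activation receptor CD30, had region chr1:12122214-12123160 with 245 and 203 tags and folds of 132 and 118.5, and it touched a simple-repeat peak. NDUFA3, a subunit of respiratory complex I, and OSCAR, an osteoclast receptor, shared 2 regions. Region chr19:54604580-54604738 had 26 and 17 tags with folds of 107 and 117, and region chr19:54604752-54604932 had 26 and 16 tags with folds of 148 and 94.2. NHSL1, a relative of the Nance-Horan syndrome gene, had chr6:138893988-138894050 with 17 and 14 tags and folds of 167 and 102. NECAB2, a neuronal calcium-binding protein, had chr16:84001297-84001415 with 19 and 18 tags and folds of 94.4 and 109, 122 bp from a simple-repeat peak. These folds rest on short regions and modest counts, apart from those of YIF1B and TNFRSF8.

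Sensory receptor genes were also among them. OR1I1, an olfactory receptor, had the most tags of all, 379 and 298 in region chr19:15199227-15200117, with folds of 144 and 104, under the label of its transcript end. OR5M11, another olfactory receptor, had chr11:56310970-56311045 with 16 and 12 tags and folds of 121 and 93.4. TAS2R1, a bitter taste receptor, had chr5:9628211-9628282 with 12 and 18 tags and folds of 119 and 120, also at the transcript end. LCE3A, a protein of the cornified envelope of skin, had chr1:152594371-152594478 with 19 and 20 tags and folds of 92.1 and 133. CRIPAK, an inhibitor of the kinase PAK1, had chr4:1387354-1387465 under the label 5' UTR with 29 and 17 tags and folds of 143 and 88.6. Of these 15 strongest regions, 12 lay more than 500 bp from any simple-repeat peak and 3 lay nearer. Over all 144 regions called in both lists, 55 lay within 500 bp of one.

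**Figure D5:**
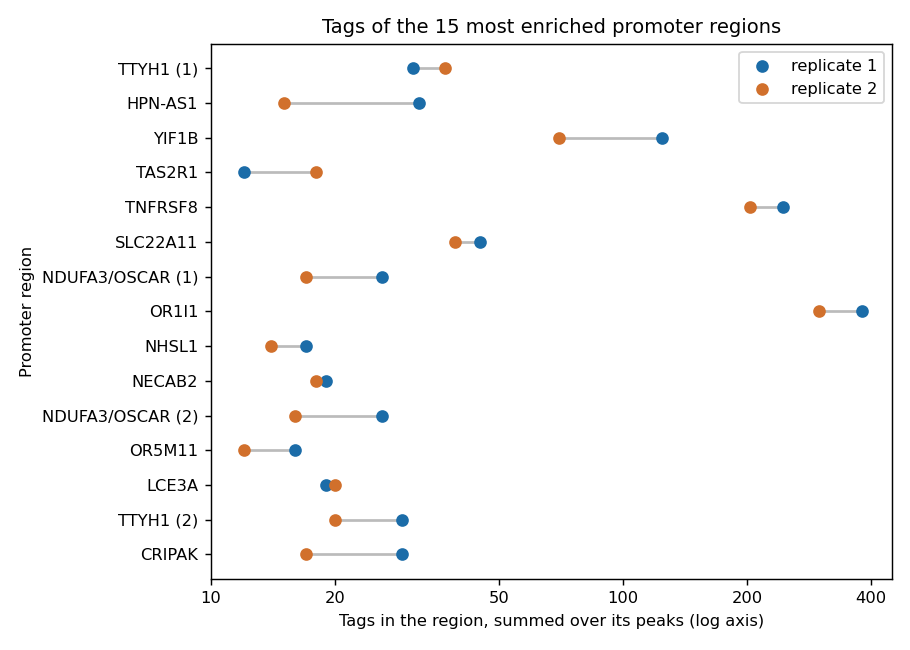
Tags in each of the 15 strongest promoter regions (horizontal, log axis, summed over the peaks of a region) in replicate 1 (blue) and replicate 2 (orange), ordered from the top by the lower fold enrichment; numbers in brackets tell apart regions of 1 gene. OR1I1, TNFRSF8 and YIF1B stand far to the right of the other regions, which had 12 to 45 tags.

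Some regions with many tags had low folds, that is, their local background was also high. MIR3648-1 and MIR3687-1, microRNA genes in sequence like that of ribosomal RNA genes on chromosome 21, had 3 regions. The region chr21:9825747-9826456 had 224 and 243 tags with folds of 8.61 and 8.08, and chr21:9826665-9827580 had 229 and 247 tags with 6.49 and 6.93. ROCK1P1, a pseudogene of the kinase ROCK1, had chr18:107823-108327 with 206 and 217 tags and folds of 5.76 and 6.15. Tags from near-identical copies cannot be assigned to 1 of them, so the position of these regions is uncertain. Of the 144 regions, 7 had a fold under 10 in both replicates. By contrast CRTAM, a receptor of cytotoxic lymphocytes, combined 183 and 121 tags with folds of 99.6 and 68.9 at chr11:122708101-122708780. CDON, a cell surface receptor of the immunoglobulin family, had 138 and 156 tags with folds of 22.5 and 26.5 at chr11:125934903-125935191. More than 100 tags in both replicates were found in 8 of the regions.

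Regions named for the same gene often lay side by side. FXYD2, a regulatory subunit of the sodium-potassium pump, had 4 regions called in both lists, the first of which by lower fold was chr11:117697917-117698074 with folds of 48.5 and 34.9 and tags of 23 and 8. The region chr11:117697467-117697744 differed most between replicates, with folds of 157 in replicate 1 and 33 in replicate 2 and tags of 69 and 22. PDE4DIP, the centrosome protein myomegalin, FLJ37505, OR2T1 and ROCK1P1 had 3 regions each, as did the pair of microRNA genes above. The 3 PDE4DIP regions had folds of 42.5 and 43.4, 25.7 and 16.2, and 17.2 and 17.4. AVPR1A, a vasopressin receptor, had 2 regions 723295 bp and 723498 bp from a simple-repeat peak. Its region chr12:63547041-63547125 had 15 and 17 tags with folds of 83 and 112, and chr12:63546838-63546951 had 10 and 5 tags with folds of 55.3 and 30.5. In all, 25 genes or gene pairs had more than 1 region called in both lists.

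The strongest promoter regions found once had up to 16 tags. In replicate 1 alone, the region of MIR489 and MIR653, microRNA genes within the calcitonin receptor gene, had 16 tags and a fold of 148. It was followed by OR10H5 with 8 tags and 94.4, GAS6, a ligand of the TAM receptor kinases, with 9 tags and 93.4, SPRR2B of the cornified envelope with 13 tags and 90.5, and by 3 regions tied at 80.9, those of C17orf98 with 7 tags, BPIFC with 7 tags and DNAJB8 with 11 tags. In replicate 2 alone, PNOC, the precursor of nociceptin, had 6 tags and a fold of 81.6. PRCD, a photoreceptor disc protein, had 5 tags and 68, C1QC, a chain of complement C1q, had 9 tags and 66.5, GOLGA8S had 8 tags and 60.2, and DNER had the 7 tags given above. High folds thus also occurred in regions found once. Found once here means that the region itself overlapped no peak of the other list. C17orf98, DNAJB8, PRCD and GOLGA8S also had promoter peaks in the other list, at nearby positions that did not overlap these regions. GOLGA8S had a further region called in both lists. Among all promoter peaks, the median fold was 46.9 for those found again and 40.2 for those found once in replicate 1, and 41.6 and 32.4 in replicate 2.

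In terms of genes, the promoter peaks named 472 symbols, of which 442 matched a RefSeq gene, 0.739% of the 59778 in the table. A region called in both lists was found for 115 of the 442 (26%). Replicate 1 named 354 of these genes and replicate 2 named 227, and 139 were named in both (39.3% of the first set and 61.2% of the second). The same counts were not made for genes named for other peaks. Protein-coding genes made up 310 (70.1%), which is 1.55% of the protein-coding genes in RefSeq, and there were 57 long non-coding RNAs, 36 microRNAs and 23 transcribed pseudogenes. Olfactory receptors, the large family of odorant receptors, gave 15 genes of 875, of which 8 had a region called in both lists. Taste receptors gave 3 genes of 38, TAS1R1, TAS1R2 and TAS2R1, of which TAS1R2 and TAS2R1 had a region called in both lists. MicroRNA genes gave 36 of 1986 (7 in both lists), genes named LINC 17 of 2312 (6 in both) and genes named ZNF 10 of 701 (5 in both). The GOLGA8 family, near-identical golgin copies on chromosome 15, gave 6 of 19 genes, all 6 in both lists, and their regions share sequence.

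Few genes of the pathways that the study is about were named for promoter peaks. The lists of MAPK-ERK and MNK signalling, JAK-STAT signalling and splicing factors gave 2 of 106 genes (1.89%), against the 1.55% of protein-coding genes above. With only 2 named genes, these shares cannot tell a higher or lower frequency from an equal one. Over all 13 lists, with 432 genes, 6 genes were named for a promoter peak in either replicate (1.39%), and 3 of them had a region called in both. No gene was named in the lists of MAPK-ERK and MNK signalling (0 of 32), Y-box and cold-shock domain genes (0 of 8), erythroid genes (0 of 30), DNA repair (0 of 34), the respiratory chain (0 of 35) or neuronal genes (0 of 27). These lists are short, so at a share of 1.55% no named gene is an ordinary count for any of them. They are also selections, and the respiratory and neuronal ones do not hold NDUFA3, NECAB2 or ICAM5 described above. JAK-STAT signalling gave 1 of 32, IFNAR1, a chain of the type I interferon receptor, with 17 and 10 tags and folds of 38.8 and 26.7 at chr21:34695784-34695861, 1 bp from a simple-repeat peak. A second IFNAR1 region, chr21:34696288-34696373, was labelled promoter-TSS and had 17 tags and a fold of 48.9 in replicate 2, where the overlapping replicate 1 peak was not among the promoter peaks described. The ribosomal proteins gave 1 of 79, RPS21, with 6 and 7 tags and folds of 40.4 and 40.7 at chr20:60961322-60961378. FLI1, an ETS factor of megakaryocytes, was the 1 of 16 megakaryocyte and platelet genes and the 1 of 31 haematopoietic transcription factors, with 5 and 6 tags and folds of 24.3 and 24.5. The remaining ones were found in a single replicate. PRPF3, a splicing factor of the U4/U6 particle and 1 of 42 in its list, had 6 tags in replicate 1. EIF4EBP1, a repressor of cap-dependent translation and 1 of 41, had 9 tags in replicate 1. CCND3, cyclin D3 and 1 of 36 cell cycle genes, had 5 tags in replicate 2.

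The promoter windows of the named genes held the motifs searched for about as often as all promoters, with 1 tandem motif apart, and their share of CpG-rich windows was slightly lower. RefSeq windows of 250 bases before to 50 after each start were at hand for 262 of the genes (388 windows), and the whole table outside X and Y held 33725 windows. CCAAT, on either strand, was in 33.5% (29% to 38.3%) of the windows of the named genes and in 34.4% of all. In the 107 windows of genes with regions in both lists it was in 40.2% (31.4% to 49.7%), an interval that includes the share of all. The Y-box CTGATTGG, which overlaps the CCAAT core, was in 2.58% (1.41% to 4.68%) and 3.96%, the GC-box core GGGCGG in 43.3% and 45%, CACC in 93.3% and 91.7%, and TATAAA in 11.6% and 11.6%, each on either strand. In the 107 windows CTGATTGG was in 0.935% (0.165% to 5.1%) and TATAAA in 6.54% (3.2% to 12.9%), and both intervals include the share of all. Of the tandem motifs, AGATAGAT was in 0.515% and 0.397%, AGAGAGAG in 2.58% and 3.32%, and ATCCATCC in 7 windows or 1.8% (0.877% to 3.68%), against 0.664% (0.583% to 0.757%) of all. The last of these is the motif apart, and it rests on those 7 windows. In the windows of genes with regions in both lists it was in 1.87% (0.514% to 6.56%), an interval that includes the share of all. In the 90 windows of genes whose peak was labelled promoter-TSS it was in 3.33% (1.14% to 9.35%), above the share of all but on only 3 windows. A window with at least 50% G and C and a CpG ratio of at least 0.6 was counted as CpG-rich, which was so for 41% (36.2% to 45.9%) of the windows of the named genes and 47.1% (46.5% to 47.6%) of all. For genes with regions in both lists it was 43% (34% to 52.5%), an interval that includes the share of all. Among the 90 windows of genes whose peak was labelled promoter-TSS, 50% were CpG-rich. A tandem run of at least 20 bp, with units of 2 to 6 bases, was in 7 windows (1.8%), against 1.27% of all. Windows of 1 gene overlap, so the intervals are too narrow, and these are windows of genes, not of the peaks themselves.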

How the data were processed

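YBX1 ChIP-seq peaks of 2 replicates and their shared input library from HEL cells were analysed. Tools listed in the submitters' processing notes are MACS 1.4, Bowtie2, Trimmomatic 0.36 and bcl2fastq 02.14.01.07, with the build hg19. Per the file headers, MACS 1.4.2 called peaks for each replicate against the input with a p cutoff of 1e-05 and a fragment shift of 20 bp for tags of 36 bp, so peak widths do not measure the extent of binding. Libraries held 10275569 and 10190347 tags (10010819 and 9926271 kept), and the input 77308330 (74780414 kept). The authors then filtered and annotated the lists by rules not given in the sources used here.

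Per the file headers, each peak has a tag count, a score (−10 times log10 of its p-value) and a ratio of tags to local background, the fold enrichment. The deposited false discovery rate, in percent, was 0 for all peaks. Tags, score and fold are the authors' own values and only describe, rank or filter peaks.

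Peaks were joined by overlap of at least 1 bp (Python 3.11.15, pandas 2.3.3), a step tested on simulated intervals. A fold within 0.006 of a whole multiple of the value of 1 summit tag at the genome-wide background (13.5 and 13.6) was counted as lying at that background. Shares carry 95% Wilson intervals and differences Newcombe intervals (statsmodels 0.14.6). No p-value is given, since peaks of 1 library are not replicates. Genes and labels are the authors' annotation, and of 472 symbols 422 were current and 20 more matched older names in RefSeq.

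The text names the 15 strongest regions called in both lists, those labelled CpG island in both, the 5 strongest found once per replicate (with ties), genes with several regions, and genes of 13 lists. CpG island peaks found once, CRTAM, CDON, USP17L and ZNF773 were chosen after their values were seen. The peaks described and the gene lists were chosen with earlier results of these data known.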

Additional observations from a re-analysis of the deposited data

How the results depend on the processing

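Of 66 values recomputed under alternative settings, 36 lay within the interval of the reported value (medians, equal to it) and 30 outside it, and no difference changed sign. With summits at most 100 bp apart as the criterion, 49.2% of replicate 2 promoter peaks were found again. With peaks of p at most 1e-10 in both lists, 72.2% of replicate 2 peaks were found again, median tags were 13 and 17, the CpG island share of replicate 1 was 0.637%, that of merged regions 2.12%, CpG island peaks differed in agreement from the rest by −41 and −74.7 points (on only 1 and 3 such peaks, the first with an interval of −48.9 to 38.7), and r was 0.915. With at least 10 tags, 52.5% and 68.8% were found again, median tags were 16 and 17, and CpG island peaks differed by −53.3 and −73.6 points, on 2 and 6 such peaks. Median tags of replicate 1 were 6.5 without low-complexity labels and 6.5 with chromosome X kept. Leaving out a replicate put the CpG island share of merged regions, 3.7% as reported, between 1.78% and 5.14%, and regions called in both lists gave 1.39%. Where both folds were taken over the genome-wide level (11 regions) r was 0.785. Alternatives chosen after seeing the data gave these values. Without multicopy arrays the CpG island share was 1.82% in replicate 2 and 1.62% in merged regions, and r was 0.754. With USP17L, SNAR and DBET also left out the shares were 0.709%, 1.55% and, in merged regions, 1.31%, and r was again 0.754. Without peaks within 500 bp of a simple-repeat peak 31.8% and 45.3% were found again and r was 0.893. The causes of these shifts were not tested, other than that fewer peaks remain.

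No paired analysis was possible because the replicates belong to 1 group and the input has no peak list. Peaks of 5 tags, 32% and 33.1% of the promoter peaks, limit what these lists can show, since a region near the cutoff can miss it in the other library by a single tag.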
